A study of Mus musculus with 13 samples.

Results

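Broad shared H3K27me3 domains are stretches of 9 kb or more where this mark was called in mouse embryonic fibroblasts carrying either of a pair of histone H3 mutants. Members were selected on the positions of the called peaks. Peaks of an H3.1K27M list and an H3.3K27M list that overlapped by at least 1 bp were joined into regions. A region was kept if it held a peak of each list and if its span, from the first to the last covered base, was 9 kb or more. The rule gave 400 domains out of 831 shared regions and 1383 regions in all. In the remaining 431 shared regions the span was narrower, 198 regions came from the H3.1K27M list alone and 354 from the H3.3K27M list alone.

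The fibroblasts had received a lentivirus for lasting expression of histone H3.1 or histone H3.3 in which the lysine that carries the mark is replaced by methionine. H3K27me3 was precipitated with the same monoclonal antibody from formaldehyde-fixed chromatin cut with micrococcal nuclease. Each mutant had 2 replicate samples under a single deposited peak list, so no spread between replicates could be computed and no test between the mutants was made. The labels do not say whether a line is a clone, and peak lists carry no expression values with which the cell type could be checked. Of the 13 samples in the series, those with other antibodies, the K27R mutants and the empty control were not analysed here.

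H3K27me3 is placed by the Polycomb repressive complex PRC2, whose catalytic subunit EZH2 methylates the H3 tail and whose subunit EED binds the finished mark and stimulates further methylation. The complex typically starts at CpG-rich promoters of silent developmental genes and the mark spreads from there, so that gene clusters such as the Hox genes carry long unbroken domains. Methionine in place of the lysine makes the H3 tail an inhibitor of PRC2, and cells with such a mutant keep the mark mainly at its strongest sites. In fibroblasts these sites typically include regulators of other lineages, such as neural, gut and muscle factors.

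No gene annotation of build mm9 was used. Genes are named below only where the place of a locus on mm9 is common knowledge, as background, and whether a given start site lies inside a called peak was not tested. A few loci carry the sequences shown here. The first is the group of Mir9 genes, which encode the neural microRNA miR-9. Domains lay at each of its 3 loci (Mir9-1, Mir9-2 and Mir9-3), a group singled out after the positions were seen. In RefSeq's tables (GRCm38.p6) all 3 genes give the same pair of mature sequences, here with the seed (bases 2 to 8) in capitals.

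miR-9-5p: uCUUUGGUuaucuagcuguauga

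miR-9-3p: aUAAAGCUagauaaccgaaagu

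The others are homeobox and zinc finger loci among the 10 widest domains. For these the RefSeq window from 250 bases before to 50 bases after the start is shown for Hoxd10, a homeodomain factor of limb and trunk patterning, Zic1, a zinc finger factor of the neural plate, and Tlx1, a homeodomain factor needed for the spleen. Each is given on the gene's own strand from GRCm38.p6, with every CG in capitals. Because that build differs from mm9, no position is given.

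Hoxd10: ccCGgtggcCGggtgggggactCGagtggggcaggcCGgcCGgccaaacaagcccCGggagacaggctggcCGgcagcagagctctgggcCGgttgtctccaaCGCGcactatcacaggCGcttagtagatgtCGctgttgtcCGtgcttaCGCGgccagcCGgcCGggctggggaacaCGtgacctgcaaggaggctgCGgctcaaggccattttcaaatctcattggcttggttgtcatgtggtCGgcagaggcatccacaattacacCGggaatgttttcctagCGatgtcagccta

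Zic1: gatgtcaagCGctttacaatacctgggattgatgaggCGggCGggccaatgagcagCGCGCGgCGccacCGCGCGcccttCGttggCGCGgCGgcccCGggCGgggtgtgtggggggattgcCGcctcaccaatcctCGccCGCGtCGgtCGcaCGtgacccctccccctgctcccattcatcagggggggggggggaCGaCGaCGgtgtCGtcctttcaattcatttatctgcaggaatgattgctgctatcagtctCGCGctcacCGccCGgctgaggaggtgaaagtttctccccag

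Tlx1: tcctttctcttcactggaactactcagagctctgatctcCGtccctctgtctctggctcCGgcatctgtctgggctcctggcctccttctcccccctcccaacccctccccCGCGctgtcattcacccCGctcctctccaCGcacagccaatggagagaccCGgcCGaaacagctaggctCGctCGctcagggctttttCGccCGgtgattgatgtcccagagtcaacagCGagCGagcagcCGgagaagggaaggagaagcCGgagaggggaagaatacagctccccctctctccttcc

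The Hoxd10 window holds 22 CG, the Zic1 window 31 and the Tlx1 window 16. Over 32851 windows of the same length the median was 7, with quartiles of 3 and 20. CG reads the same on both strands, and 94.6% of all windows hold at least 1. As many CG as in the Hoxd10 window occur in 23.1% of windows, as many as in Zic1 in 10.6% and as many as in Tlx1 in 33%. These windows are descriptions of CpG content and do not show where PRC2 bound.

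The domains were long by the rule, and they held most of the length covered in each list but not most of its peaks. Selection by span favours a large share of the length. Their median span was 14.6 kb, with quartiles of 11.2 and 22.8 kb and a range from 9.2 to 102.4 kb. By span, 129 domains measured under 12 kb, 136 from 12 to 20 kb, 112 from 20 to 40 kb and 23 more than 40 kb. Counted by peaks, 424 of 1053 in the H3.1K27M list lay in them (40.3%, exact binomial 95% interval 37.3 to 43.3%), and these made up 69.5% of the length covered in that list. Of the H3.3K27M list they contained 407 of 1192 peaks (34.1%, interval 31.5 to 36.9%) and 61.3% of the covered length. All intervals cover counting error only and treat regions as independent.

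Wide peaks were rarely private to a mutant. Among all 453 regions of 9 kb or more, 400 (88.3%, interval 85.0 to 91.1%) were shared, 45 were in the H3.3K27M list alone and 8 in the H3.1K27M list alone. In the 930 narrower regions 431 (46.3%, interval 43.1 to 49.6%) were shared. Joining peaks of both lists lengthens a shared region, so part of this gap follows from the rule, and the difference was not tested. The widest region found in the H3.3K27M list alone measured 38.6 kb and the widest in the H3.1K27M list alone 22.6 kb.

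A domain of 9 kb in span was not always broad in each mutant. Both lists covered 9 kb or more in 253 domains (63.3%). In 114 domains the H3.3K27M peaks reached that length and the H3.1K27M peaks did not, and in 30 the reverse held. In 3 domains neither list did, and the span came from peaks offset against each other. At the threshold, 11 domains had a span of 9.2 kb and 11 shared regions fell just outside at 9.0 kb. The latter measured 8999 bp as end minus start, and would be members if the deposited ends were counted as covered bases, which the sources used here do not settle. Inside, chr11:103667001-103676199 had 8.4 kb covered in H3.1K27M and 9.2 kb in H3.3K27M cells, chr13:49237801-49246999 had 9.2 and 8.6 kb, and chr2:26990401-26999599 had 9.2 and 6.0 kb. Outside, chr11:74420801-74429799 had 6.6 and 9.0 kb, chr12:101200001-101208999 had 4.6 and 9.0 kb, and chr13:56320801-56329799 had 8.0 and 7.4 kb. In steps of 200 bp the number of shared regions was 15, 17 and 11 at 8.6, 8.8 and 9.0 kb and 11, 13 and 7 at 9.2, 9.4 and 9.6 kb, with no gap at the threshold.

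Ranks 1, 2 and 7 by span lay at Hox clusters. At the HoxC cluster, a row of homeodomain genes that give the body axis its positions, the domain ran over chr15:102726001-102828399. H3.1K27M peaks covered 82.2 kb there and H3.3K27M peaks 102.4 kb, with the extra length at both ends (9.2 kb on the left and 11 kb on the right). The HoxD cluster on chr2:74481601-74553199 differed: its H3.3K27M peak began 2.8 kb farther left but ended 14.6 kb earlier. Covered lengths at HoxD were 68.8 kb in H3.1K27M and 57.0 kb in H3.3K27M cells. At the HoxB cluster, chr11:96022801-96076399 had 46.2 and 53.6 kb. How much of the cluster this domain spans was not tested, so these lengths describe the domain and not the whole cluster. The domain at HoxA on chr6:52175601-52220599, at rank 15, had 44.2 and 38.6 kb. The next domain on that chromosome, chr6:52253401-52277999, went the other way with 17.6 and 24.6 kb. So the H3.3K27M list covered more in the HoxC and HoxB domains, less in the HoxD domain, and either more or less in the neighbouring domains on chromosome 6.

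A pair of the 10 widest domains lay at Pax2, a paired-box factor of kidney, eye and midbrain. The first, chr19:44790601-44849599, had 58.8 kb in H3.1K27M and 55.6 kb in H3.3K27M cells. The second, chr19:44870201-44919999, had 49.4 and 41.2 kb. Both were covered slightly more in the H3.1K27M list as called. Between them lay an H3.3K27M peak of 11.6 kb with no partner, 3.4 kb from the second domain. With peaks under 5 kb apart merged, that peak joined the second domain and its log2 ratio turned from -0.26 to 0.19. Tlx1, on chr19:45198401-45248799, had 46.2 and 50.4 kb. Pax7, a paired-box factor of muscle stem cells and neural crest on chr4:139362001-139412399, had 47.6 and 45.0 kb. The ratio of H3.3K27M to H3.1K27M length at these 4 domains lay between 0.834 and 1.09. Of the 4, the second Pax2 domain was broken in the H3.3K27M list (peaks of 16.2 and 25 kb) and Pax7 in the H3.1K27M list (39.6 and 8.0 kb).

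The remaining 3 of the 10 widest had 3 or more H3.1K27M peaks each. At Mir9-3, chr7:86639001-86706399, the H3.1K27M list had 3 peaks of 22.0, 25.6 and 5.6 kb against a single H3.3K27M peak of 67.4 kb. At the neighbouring genes Zic1 and Zic4, chr9:91243201-91306199, it had 3 peaks of 40.4, 2.6 and 6.0 kb against 1 of 63.0 kb. At Dmbx1, a paired-type homeodomain factor of the brain on chr4:115598601-115656199, 4 peaks of 16.0, 2.2, 3.0 and 14.4 kb faced 1 of 57.6 kb. The map of the 10 widest domains shows these breaks inside the domains as called. At Zic1 and Zic4 both gaps (3.0 and 4.6 kb) close when peaks under 5 kb apart are merged. Of the 10 domains, 6 were covered more in the H3.3K27M list and 4 in the H3.1K27M list.

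**Figure D1:**
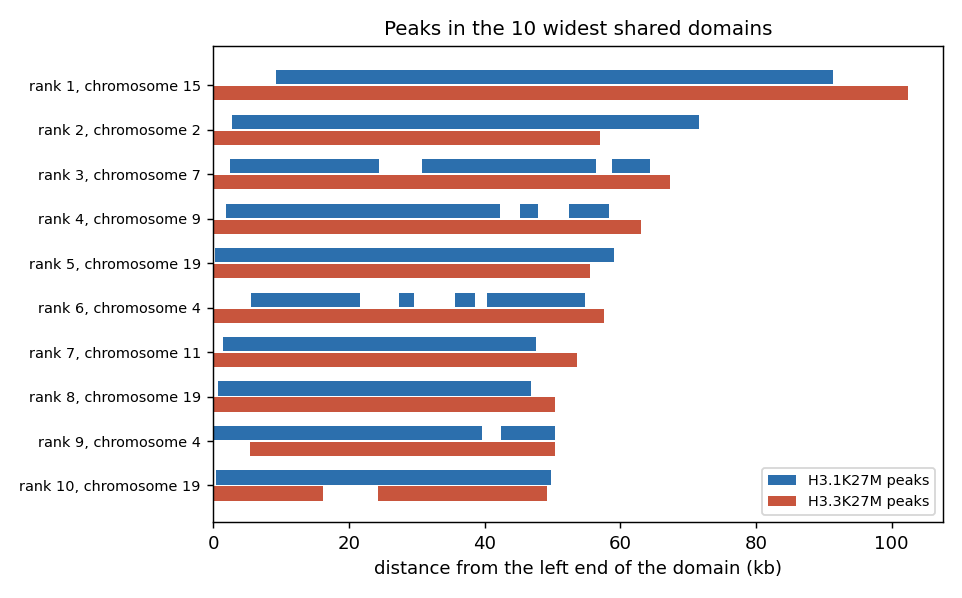
Peaks of each list in the 10 domains of largest span, drawn from the left end of the domain (x axis, kb), with H3.1K27M peaks above and H3.3K27M peaks below in each row. Ranks 3, 4 and 6 have 3, 3 and 4 H3.1K27M peaks against 1 H3.3K27M peak, while rank 2 reaches 14.6 kb farther right in the H3.1K27M list.

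Across all 400 domains the H3.3K27M list usually covered somewhat more. H3.1K27M peaks covered a median of 11.5 kb per domain, with quartiles at 8.5 and 18.8 kb and a range of 2.4 to 82.2 kb. H3.3K27M peaks covered a median of 14.1 kb, with quartiles at 10.4 and 22.2 kb and a range of 2.8 to 102.4 kb. On the log2 scale, the length in H3.3K27M cells divided by that in H3.1K27M cells had a median of 0.29 (95% order-statistic interval 0.24 to 0.33), a 1.23-fold difference. Its SD over domains was 0.58, larger than the median itself. H3.3K27M covered more in 316 domains (79.0%), H3.1K27M in 82 (20.5%), and 2 were equal. Over all 831 shared regions these shares were 77.4% and 19.9%, so the direction is not particular to broad domains. In the plot of covered lengths most domains lie between the line of equality and the line for 1.5-fold more in H3.3K27M cells.

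Differences of 1.5-fold or more were the exception. The H3.3K27M list covered at least 1.5 times as much in 105 domains (26.3%, exact interval 22.0 to 30.9%), against a background of 29.7% over all 831 shared regions. The H3.1K27M list covered at least 1.5 times as much in 25 domains (6.25%, interval 4.09 to 9.09%), against a background of 5.17%. Both shares are near their background, so the count says nothing particular about broad domains. A difference of 2-fold or more was found in 41 of the 400 domains for H3.3K27M and in 8 for H3.1K27M. Over all 831 shared regions these counts were 107 and 15, so they too say nothing particular about broad domains. The same lists define members and ratio, and the ratio depended on how members were chosen: among the 283 shared regions with 9 kb or more covered in the H3.1K27M list, the median log2 ratio was 0.17 and 10.9% reached 1.5-fold more in H3.3K27M. With 9 kb required in each list (253 regions) these were 0.20 and 12.3%.

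**Figure D2:**
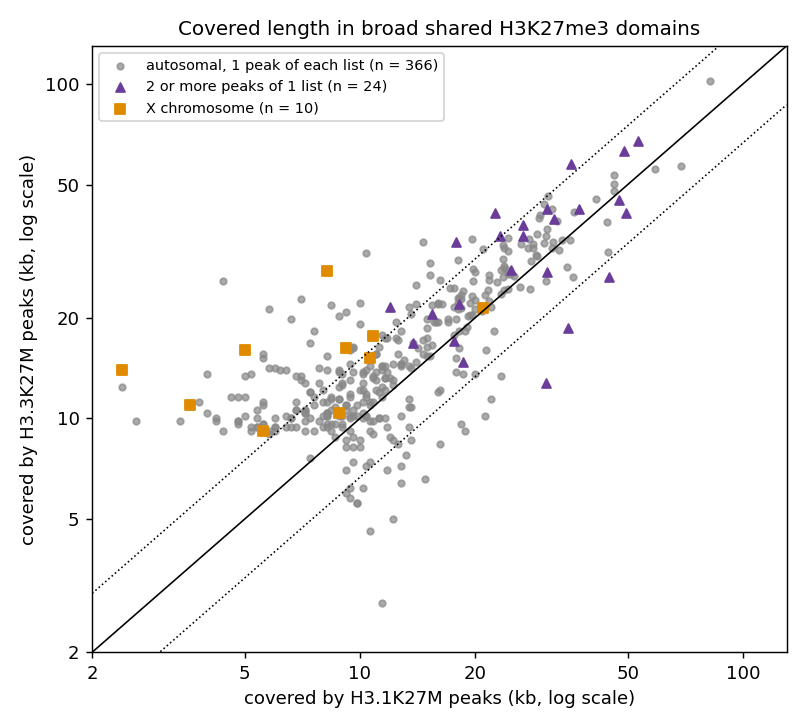
Covered length in H3.1K27M cells (x axis, kb, log scale) against H3.3K27M cells (y axis, kb, log scale), 1 point per domain, with the line of equality and dotted lines at 1.5-fold. Of the 400 points 316 lie above equality, and the points far above it at the left are domains of little H3.1K27M coverage, among them 4 of the 10 on the X chromosome, which reach 2-fold.

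Most of the domain length was covered in both mutants. Together the domains spanned 7.69 Mb, of which 5.65 Mb (73.5%) was covered in both lists, 1.62 Mb in the H3.3K27M list only and 0.422 Mb in the H3.1K27M list only. Of the H3.1K27M length 93.1% lay under an H3.3K27M peak, and 77.8% of the H3.3K27M length lay under an H3.1K27M peak. Per domain the median shared part was 74.4% of the covered length (quartiles 61.3 and 85.2%, range 17.1 to 100%). It was under 50% in 50 domains and at least 90% in 53. Over all 831 shared regions the median was 72.4%, with 126 under 50% and 106 at 90% or more, so the overlap is not particular to broad domains. No base of a domain lay in a gap of both lists at once, which follows from joining overlapping peaks.

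The shared part of the pooled length was larger in the classes of longer domains. Covered in both lists was 70.0% of the length in domains under 12 kb, 70.4% from 12 to 20 kb, 75.2% from 20 to 40 kb and 78.3% above 40 kb. The medians per domain were 70.2, 72.0, 80.5 and 78.9%, and so did not rise in every step. The median log2 ratio was 0.33, 0.29, 0.26 and 0.19 in these classes. H3.3K27M covered 1.5 times as much in 41 of 129, 39 of 136, 23 of 112 and 2 of 23 domains. Size classes use the same positions as the ratio, and no test was made between them. In the shared regions under 9 kb the corresponding values were 68.0% in both lists and a median log2 ratio of 0.37.

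Most H3.3K27M domains reached beyond the H3.1K27M domain on each side. This held in 257 domains (64.3%, exact interval 59.3 to 69.0%), and the reverse in 29 (7.25%). Over all shared regions the shares were 61.1% and 6.98%, near those of the broad domains. The H3.3K27M domain was shifted to the left in 34 and to the right in 33. In 46 domains one edge coincided, and in 1 both did. Taken singly, 304 left edges and 311 right edges lay farther out in the H3.3K27M list, and 70 and 67 in the H3.1K27M list. The distance of the H3.3K27M edge beyond the H3.1K27M edge, negative where H3.1K27M reached farther, had a median of 1.2 kb on the left and 1.4 kb on the right. These medians over all domains do not show that both sides of a given domain were alike. Positions are resolved to the 200 bp grid of the lists.

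**Figure D3:**
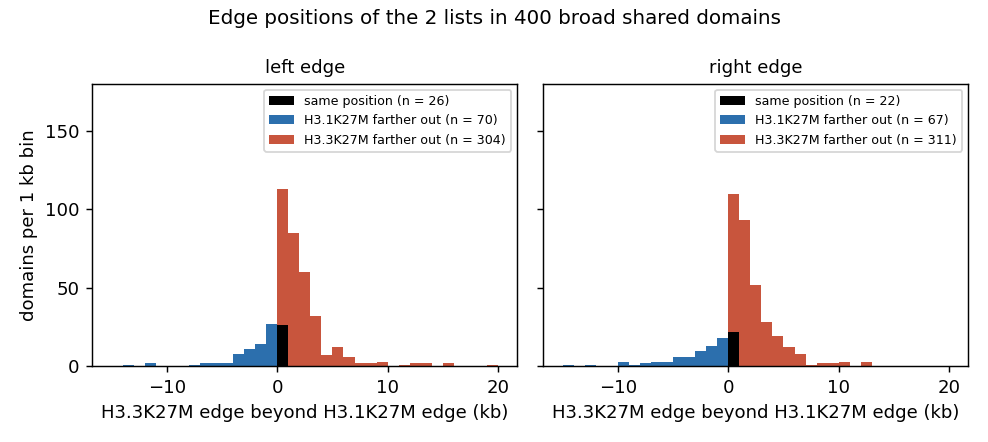
Distance by which the H3.3K27M edge lies beyond the H3.1K27M edge (x axis, kb, negative where H3.1K27M reaches farther), for left and right edges, in 1 kb bins with the number of domains on the y axis. Both histograms peak just above 0 (medians 1.2 and 1.4 kb), with 26 left and 22 right edges at the same position.

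A few edges moved far. Of the 800 edges 268 (33.5%) lay within 1 kb of each other, 66 lay at least 5 kb farther out in the H3.3K27M list and 23 at least 5 kb farther out in the H3.1K27M list. Over all shared regions 832 of 1662 edges (50.1%) lay within 1 kb, and 67 and 24 lay at least 5 kb farther out. The span limits how far out an edge can lie, so these counts depend on the 9 kb rule. Both H3.3K27M edges were at least 5 kb beyond in 6 domains. In 11 domains an H3.3K27M extension of 5 kb or more on one side came with less than 1 kb, or none, on the other. Among these, H3.1K27M reached farther on the other side on chr1:78186001-78215799 (by 5.6 kb) and chr13:117488201-117502399 (by 0.2 kb). Over all domains the longest H3.3K27M extension was 19.4 kb, at the left edge of chr10:45185801-45211599. The longest in the other direction was the 14.6 kb at HoxD, followed by 13.8 kb at the left edge of chr11:98158801-98203999.

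The domains with the largest ratios were small islands in H3.1K27M cells. On chr10:45185801-45211599 an H3.1K27M peak of 4.4 kb lay in an H3.3K27M peak of 25.8 kb, 5.87 times as long. On chrX:50094801-50108799 the lengths were 2.4 and 14.0 kb, and on chr3:17685001-17697399 they were 2.4 and 12.4 kb. The next were chr2:10288201-10297999 with 2.6 and 9.8 kb and chr17:35474601-35495799 with 5.8 and 21.2 kb. In all of these 5 the H3.1K27M peak lay wholly inside the H3.3K27M peak. By absolute length the most H3.3K27M-only sequence was at Dmbx1 (22.0 kb), chr10:45185801-45211599 (21.4 kb), chr11:23959601-23990799 (20.8 kb, with 10.4 against 31.2 kb) and HoxC (20.2 kb).

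At the other extreme H3.1K27M peaks outreached H3.3K27M peaks. The lowest ratio was on chr4:150499001-150510399, with 11.4 kb in H3.1K27M and 2.8 kb in H3.3K27M cells. It was followed by chr11:118427601-118439799 (12.2 and 5.0 kb), chr15:101672601-101703199 (30.6 and 12.8 kb), chr12:86035201-86045799 (10.6 and 4.6 kb) and chr15:88885601-88900399 (14.8 and 6.6 kb). Here the H3.3K27M peaks lay wholly inside the H3.1K27M peak in all 5. By absolute length the most H3.1K27M-only sequence was on chr9:107270201-107314999 (18.4 kb), chr15:101672601-101703199 (17.8 kb), chr8:125251801-125286799 (16.4 kb), HoxD (14.6 kb) and chr11:98158801-98203999 (13.8 kb). In the first 3 of these the H3.3K27M list had 2 peaks, with gaps of 9.4, 6.8 and 3.6 kb between them.

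Breaks within a domain were more often in the H3.1K27M list. Peaks were joined by overlap alone, so a gap counts as a break only where a peak of the other list spans it. A list with longer peaks therefore shows more breaks in its partner, and the difference was not tested. In 17 domains it had 2 or more peaks against a single H3.3K27M peak, and in 7 domains the reverse held. The 24 gaps in the H3.1K27M list had a median of 3.1 kb and ran from 1.8 to 12.0 kb, 99.6 kb in all. The 7 gaps in the H3.3K27M list had a median of 3.6 kb and reached 9.4 kb, 31.8 kb in all. One of the 7 is a point of contact: on chr19:44705201-44735999 a pair of H3.3K27M peaks of 20.6 and 6.8 kb abut, with 1 bp between the printed end and the next start. All broken domains were 17.4 kb or wider, with a median span of 35.2 kb.

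A few broken domains lay at loci that can be named. At Tfap2b, a factor of neural crest and kidney on chr1:19197001-19234999, the H3.1K27M list had 4 peaks of 14.4, 3.6, 6.6 and 2.0 kb under an H3.3K27M peak of 38.0 kb. At Mir9-2, chr13:83850801-83885999, it had 3 peaks of 21.2, 3.8 and 1.6 kb under 1 of 35.2 kb. Mir9-1, chr3:87996601-88030399, had 2 peaks of 9.2 and 8.6 kb with a 5.0 kb gap under 1 of 33.8 kb, which also reached 5.4 kb farther left and 5.6 kb farther right. With Mir9-3 described above, the H3.1K27M list as called was thus broken and the H3.3K27M list unbroken at all 3 Mir9 loci. Both gaps at Mir9-2 (2.4 and 4.0 kb) close when peaks under 5 kb apart are merged, so its break depends on that setting. The Mir9-1 gap of 5001 bp lies just above this limit. As called, the ratios at Mir9-1, Mir9-2 and Mir9-3 were 1.90, 1.32 and 1.27. Next to Mir9-3, chr7:86732601-86754199 formed another broken domain, with H3.1K27M peaks of 7.2 and 4.8 kb under 21.6 kb, and an H3.3K27M peak of 12.2 kb without a partner lay 2.4 kb from the Mir9-3 domain on the side facing it. These loci were chosen after their values were seen, and gaps depend on the calling threshold, so the pattern was not tested.

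**Figure D4:**
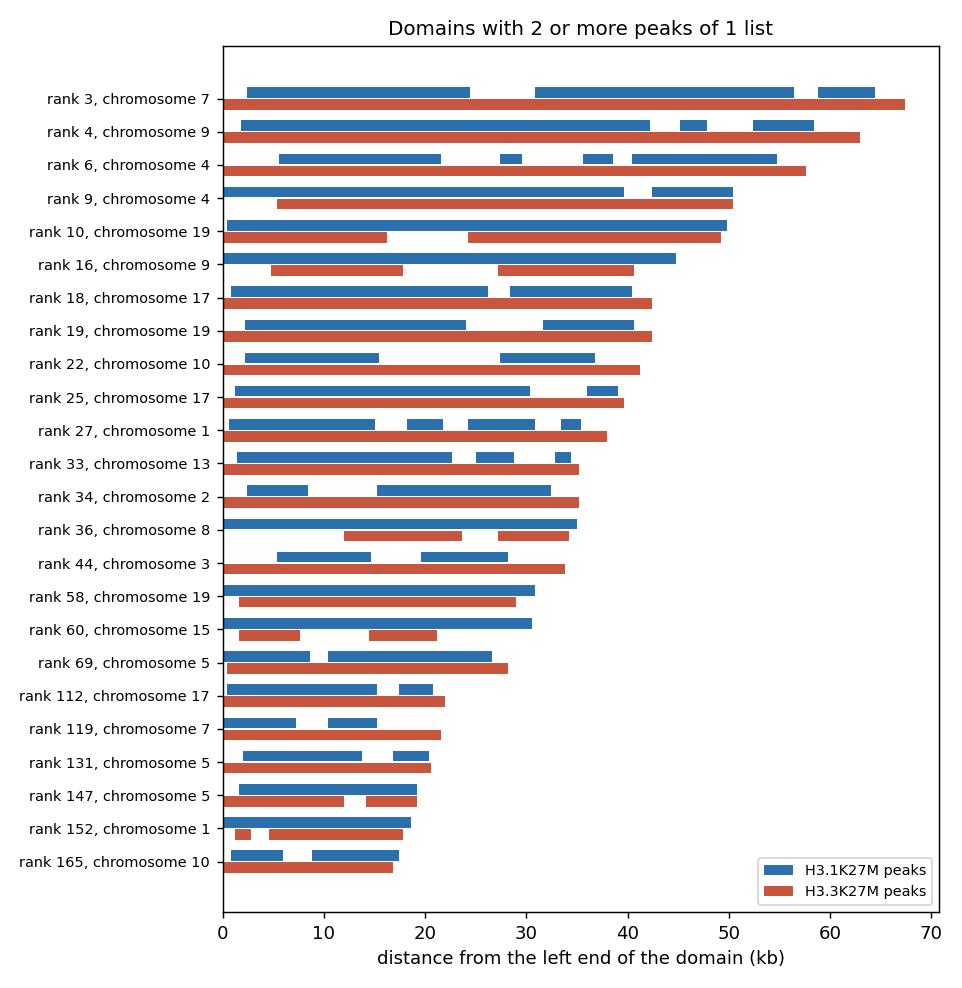
The 24 domains with 2 or more peaks of one list, drawn from the left end of each domain (x axis, kb), ordered by span rank among the 400. In 17 rows the H3.1K27M bar (upper) is broken against 1 H3.3K27M bar, in 7 rows the H3.3K27M bar (lower) is broken, and the abutting pair at rank 58 shows no visible gap.

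The widest domains of other chromosomes ranged widely in their ratio. At Sox2, a factor of pluripotent and neural cells on chr3:34537201-34571599, the lists covered 27.6 kb (H3.1K27M) and 34.4 kb (H3.3K27M). The widest domain of chromosome 13, chr13:40795201-40843999, had 46.2 and 47.8 kb, and that of chromosome 14, chr14:63846601-63891999, had 41.4 and 45.4 kb. Olig2, a factor of motor neurons and oligodendrocytes on chr16:91210601-91244799, had 33.8 and 34.2 kb. In these 4 domains the H3.3K27M list covered more, from 1.01 times at Olig2 to 1.25 times at Sox2. Larger differences were found in the widest domains of chromosome 10, chr10:22528801-22569999, with 22.6 and 41.2 kb, and chromosome 12, chr12:57609201-57643799, with 24.4 and 34.6 kb. The widest on chromosome 1, chr1:63289801-63330399, had 29.6 and 40.6 kb, and that on chromosome 5, chr5:140004801-140044599, had 29.4 and 39.8 kb. On chromosome 17, chr17:85851801-85894199 had 37.4 and 42.4 kb, and on chromosome 18, chr18:64487601-64510199 had 22.6 kb in H3.3K27M cells, 1.13 times the H3.1K27M length. Chromosome 8 went the other way, with 35.0 kb in H3.1K27M and 18.6 kb in H3.3K27M cells on chr8:125251801-125286799.

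Domains were unevenly spread over the 20 chromosomes. Chromosome 2 had 48, chromosome 5 had 42, chromosome 11 had 36 and chromosome 4 had 32. Per length, chromosome 19 led with 0.375 domains per Mb (exact Poisson interval 0.238 to 0.563) against 0.152 over the genome, and domains spanned 0.968% of it against 0.291% overall. Chromosome 11 had 0.296 per Mb (0.207 to 0.409). Chromosome X had 0.060 per Mb (0.029 to 0.110) and chromosome 3 had 0.069 (0.034 to 0.123). Shared regions of any width were also dense on chromosome 19 (38 in 61.3 Mb) and sparse on X (15 in 166.7 Mb), against 831 in 2639 Mb. Uneven density is thus not particular to broad domains. Of shared regions, 28.9% were broad on chromosome 7 (13 of 45, interval 16.4 to 44.3%) and 60.5% on chromosome 19 (23 of 38, interval 43.4 to 76.0%), against 48.1% over the genome. The share was higher still on chromosomes 16 (8 of 13) and X (10 of 15), each with few regions. Domains cluster, so these intervals are too narrow.

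**Figure D5:**
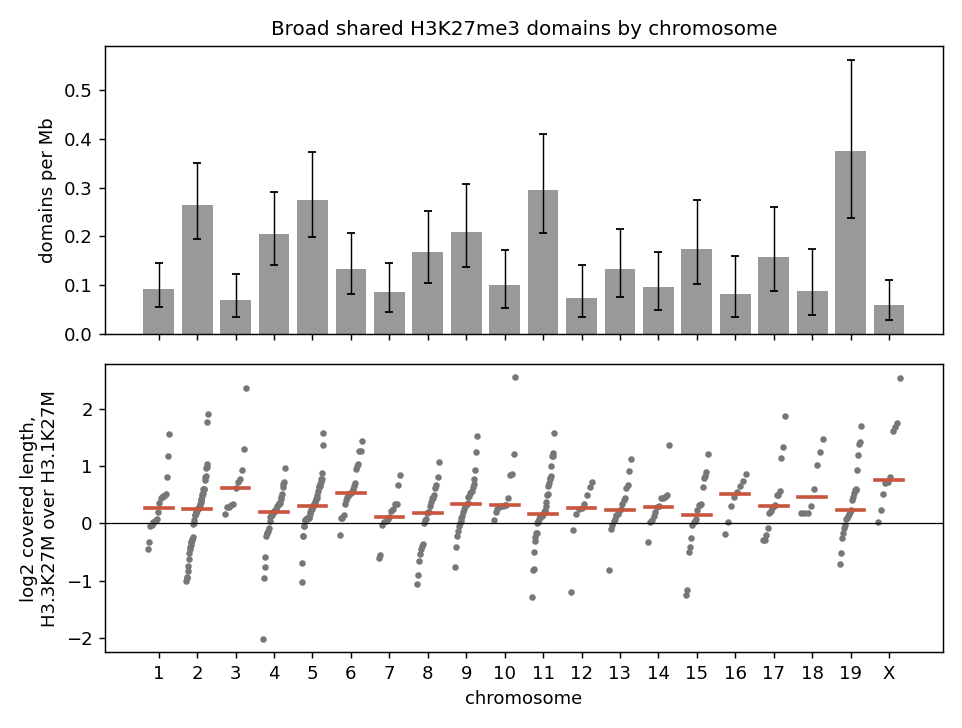
Broad domains per Mb by chromosome with exact 95% Poisson intervals (upper panel), and the log2 of H3.3K27M length divided by H3.1K27M length in each domain with the chromosome median as a bar (lower panel). Chromosome 19 is highest at 0.375 per Mb and chromosome X lowest at 0.060, and all 20 medians lie above 0.

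The direction of the covered length ratio was the same on every chromosome. The median log2 ratio ran from 0.12 on chromosome 7 to 0.61 on chromosome 3 among the autosomes and was 0.77 on the X chromosome. H3.3K27M covered more in all domains of chromosomes 3 (11), 10 (13), 18 (8) and X (10), and in 31 of 48 (64.6%) on chromosome 2. Over all 400 domains the share was 79.0%. Peaks covered 0.0852 Mb of the X chromosome domains in the H3.1K27M list and 0.159 Mb in the H3.3K27M list. Of the 10 X chromosome domains 7 reached 1.5-fold, against 98 of 390 (25.1%) on the autosomes. On chrX:50094801-50108799, described above, the lengths were 2.4 and 14.0 kb. On chrX:90524601-90547599 they were 21.0 and 21.4 kb, so the X chromosome domains did not all behave alike. No test of the X chromosome was made.

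A minority of broad domains had another one nearby. Within 100 kb of 86 domains (21.5%, exact interval 17.6 to 25.9%) lay another broad domain, and the median distance to the next was 631.8 kb. For shared regions under 9 kb the share with another narrow one within 100 kb was 12.1% (52 of 431, interval 9.14 to 15.5%). Neighbours at most 100 kb apart formed 27 pairs and 9 larger groups, 5 of 3 domains, 3 of 4 and 1 of 5.

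The group of 5 was the Pax2 stretch on chromosome 19, from 44705201 to 44919999, with 175.4 kb of domains in 214.8 kb. Within these 5 domains H3.1K27M peaks covered 172.0 kb and H3.3K27M peaks 156.0 kb, and H3.1K27M covered more in 4 of the 5. The H3.3K27M peak of 11.6 kb without a partner also lies in the stretch and is not in these lengths. Further along, chr19:45198401-45383599 held 3 domains, at Tlx1 and Lbx1, a homeodomain factor of migrating muscle precursors, among other sequence, with 92.8 kb in H3.1K27M and 101.4 kb in H3.3K27M cells. H3.3K27M covered more in all 3.

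Other groups ranged widely in their ratio. On chr5:140004801-140160599, 4 domains had 48.8 kb in H3.1K27M and 79.8 kb in H3.3K27M cells. On chr5:28442801-28542799, 3 domains had 49.2 and 74.4 kb, and on chr5:147994001-148135199, 3 domains had 65.2 and 70.0 kb. Chromosome 5 groups were thus covered more in the H3.3K27M list, by 1.07 to 1.64 times. Those at Olig1 and Olig2, chr16:91210601-91307399, had 68.4 and 68.0 kb in 3 domains. Groups on chr1:74891801-75006999 (3 domains, 53.4 and 66.8 kb) and chr11:103506801-103676199 (4 domains, 40.4 and 44.4 kb) were covered more in the H3.3K27M list. The reverse held on chr2:164931201-165081599, with 65.6 and 55.0 kb in 4 domains.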

How the data were processed

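H3K27me3 was mapped by chromatin immunoprecipitation and sequencing. The submitters' processing notes name the build mm9, the aligner Bowtie 1.0.0 and deepTools. Not given in the sources used here are the peak caller, its threshold, any input and whether replicates were pooled. What the authors deposited are peak positions and widths in bp on a 200 bp grid, with neither height nor significance, so depth is unknown. A deeper library or a looser threshold can widen a peak where the chromatin is the same. Starts were raised by 1 bp for printing.

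Regions were joined and measured with Python 3.11.15, numpy 2.4.6, pandas 2.3.3 and scipy 1.17.1, figures were drawn with matplotlib 3.10.9, and chromosome lengths of mm9 were read from GenomeInfoDb 1.38.1. The joining step was tested on simulated data. Shares carry exact binomial and densities exact Poisson 95% intervals. Domains named in the text are the 10 widest, those with the 5 highest and lowest ratios, those with most sequence of a single list, those with 3 or more peaks of a list, groups of 3 or more within 100 kb, 3 on each side of the threshold and widest domains of chromosomes. The Mir9 set and any other domain outside these were chosen after their values were seen. Members and lists were chosen with earlier results of these data known. Planned gene counts and base composition need an mm9 reference and were not run. Promoter windows and miRNAs come from RefSeq tables of GRCm38.p6, and no coordinate was converted. One domain that this rule names is not reported here.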

Additional observations from a re-analysis of the deposited data

How the results depend on the processing

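No paired analysis was possible because both replicates of a mutant share 1 peak list, which also prevents leaving a replicate out. Selection by the H3.1K27M or the H3.3K27M list alone, and leaving out the 24 broken domains, were added after seeing the data. Requiring 9 kb covered in each list gave 253 domains, a median log2 ratio of 0.20, 12.3% with 1.5 times more H3.3K27M and 3.16% with 1.5 times more H3.1K27M coverage, and a median shared part of 81.3%. Requiring it in the H3.1K27M list alone gave a ratio of 0.17, 10.9% with 1.5 times more H3.3K27M coverage, a shared part of 80.3% and 54.1% with H3.3K27M beyond at both edges. In the H3.3K27M list alone it gave 2.18% with 1.5 times more H3.1K27M coverage and 70.0% beyond at both edges. By construction, selection by a list favours regions where that list is wide. A reciprocal overlap of 50% lowered the share with 1.5 times more H3.3K27M coverage to 19.1%, since it drops pairs of unequal width. Counting neighbours within 50 or 200 kb gave 16.0% and 33.3%. The other 46 recomputed values of the domains as a whole stayed within the interval of the reported value or, for counts, within 1.5 times. Among them, the number of broken domains fell from 24 to 16 with peaks under 5 kb apart merged, at the edge of that limit. Merging peaks under 5 kb apart reversed 1 of the 10 widest domains, the second at Pax2, from -0.26 to 0.19, because the H3.3K27M peak of 11.6 kb beside it was joined. The same merging moved the log2 ratio at Mir9-3 from 0.34 to 0.56 and at Zic1 and Zic4 from 0.36 to 0.15. Unknown depth limits every statement on where a peak ends.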

Other observations

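Peaks without a partner lay close to some broad domains. Within 10 kb of 17 domains (4.25%, exact interval 2.49 to 6.72%) there was an H3.3K27M peak with no H3.1K27M partner, and within 10 kb of 6 (1.5%, interval 0.55 to 3.24%) an H3.1K27M peak with no H3.3K27M partner. For shared regions under 9 kb these numbers were 2 and 4 of 431. The H3.3K27M list had more regions without a partner, 354 against 198. Of these, 4.24% (H3.3K27M) and 3.03% (H3.1K27M) lay within 10 kb of a broad domain. Within 50 kb the order was reversed, with 9.89% and 13.6%. None of these differences was tested. The widest such neighbour was an H3.1K27M peak of 22.6 kb, 4.4 kb from the domain on chr8:125251801-125286799, where H3.1K27M also covered 35.0 kb against 18.6 kb. An H3.3K27M peak of 11 kb lay 7.8 kb from chr19:25659401-25703199, a domain of 43.8 kb.

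The smallest gap between neighbouring peaks was 1801 bp in the H3.1K27M list and 1 bp in the H3.3K27M list, the latter at the abutting pair on chr19:44705201-44735999. Gaps under 5 kb numbered 32 in the H3.1K27M list and 18 in the H3.3K27M list.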
